A study of Mus musculus with 2 samples.

Results

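The genes described here are 7 genes for proteins stored in the secondary (specific) and tertiary (gelatinase) granules of neutrophils: Ltf, Camp, Ngp, Lcn2, Mmp8, Mmp9 and Cd177, of 21755 protein-coding genes in the annotation. Their open regions were taken from lists of ATAC-seq peaks of mouse megakaryocytes, as every listed peak that overlapped the gene body or lay within 50 kb of it. This rule uses no measured value, but the 7 genes were chosen with earlier results of these data known. The windows held 120 of 108744 listed peaks (0.110%) in replicate 1 and 120 of 114484 (0.105%) in replicate 2. ATAC-seq uses a transposase that inserts sequencing adapters into accessible DNA, so a peak marks open chromatin and not transcription.

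The study had 1 group, with no control and no treatment. Its 2 samples were primary megakaryocytes of adult male C57BL/6J mice of 5 to 6 weeks, with 50000 cells in each. They are separate biosamples that carry 1 donor record, so the spread between them may not hold the full spread between animals. Sequencers are listed in the label of replicate 2 alone, and read numbers behind the peaks are unknown.

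Neutrophils load their granules in successive waves as they mature in the bone marrow. Primary granules with myeloperoxidase and serine proteases are made first, specific granules with lactoferrin and cathelicidin follow, and gelatinase granules are made last. The transcription factor C/EBP epsilon is needed for the specific granule genes, and PU.1 and GFI1 act in the same lineage. Megakaryocytes arise in the same marrow, carry GATA1 and NFE2 as lineage factors, and store their own cargo in alpha and dense granules.

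All 7 genes had an open promoter, meaning a region found in both replicates within 500 bp of an annotated transcript start, where 59.8% of all protein-coding genes had one. Their promoters were poor in CpG, with an observed to expected ratio between 0.0874 and 0.287 (median 0.205) in the 1 kb around the start, against a median of 0.576 over all genes. Ltf, Camp and Lcn2 were among the 4351 genes with the lowest ratios, of which 14.9% had an open promoter. Ngp, Mmp8, Mmp9 and Cd177 were among the next 4351, of which 34.6% had one. The signal at these starts was modest: their median fold enrichment over local background was 7.63, against 11.5 over all genes with an open promoter.

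The stretches just upstream of the start are shown for 6 of the genes, because they are what the open regions at the starts cover and because 4 of them share a pattern. Each holds the 150 bases before the start of the principal GENCODE transcript, read from GRCm38.p6 (mm10) on the strand of the gene, 5′ to 3′. Capitals mark matches on either strand to any of 11 patterns. These were C/EBP (TTGCNNAA), PU.1 (AGGAAGT), the GATA factors (AGATAA or TGATAA), RUNX (TGTGGT), AP-1 (TGANTCA), STAT (TTCNNNGAA), GFI1 (AATCAC), ETS (CCGGAAG), the TATA box (TATAAA), and NF-kB and CTCF by their consensus. Matches to different patterns may overlap. The window of Lcn2 lies mostly in an exon of another annotated transcript (97 of 150 bases) and is not printed.
Ltf, plus strand, chr9:111019142-111019291: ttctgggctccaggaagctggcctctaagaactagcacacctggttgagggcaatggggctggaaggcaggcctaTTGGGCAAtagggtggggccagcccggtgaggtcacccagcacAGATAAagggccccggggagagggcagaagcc
Camp, minus strand, chr9:109849618-109849767: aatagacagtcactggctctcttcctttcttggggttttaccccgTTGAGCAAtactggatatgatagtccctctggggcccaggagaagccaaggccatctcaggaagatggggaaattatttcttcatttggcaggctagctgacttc
Ngp, plus strand, chr9:110419597-110419746: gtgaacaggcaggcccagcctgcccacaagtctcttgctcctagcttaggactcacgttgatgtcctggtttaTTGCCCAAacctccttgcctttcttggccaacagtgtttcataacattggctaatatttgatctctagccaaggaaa
Mmp8, plus strand, chr9:7558306-7558455: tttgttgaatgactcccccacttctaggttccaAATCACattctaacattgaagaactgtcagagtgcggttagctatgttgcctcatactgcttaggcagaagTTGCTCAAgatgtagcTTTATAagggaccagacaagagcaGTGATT
Mmp9, plus strand, chr2:164948069-164948218: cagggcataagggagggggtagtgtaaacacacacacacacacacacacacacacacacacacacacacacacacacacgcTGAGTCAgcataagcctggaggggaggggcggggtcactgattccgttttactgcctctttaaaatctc
Cd177, minus strand, chr7:24760312-24760461: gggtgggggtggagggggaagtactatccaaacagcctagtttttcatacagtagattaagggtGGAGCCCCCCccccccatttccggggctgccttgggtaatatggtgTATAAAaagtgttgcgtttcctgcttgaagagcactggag

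The C/EBP pattern was in the upstream window of 4 of the 7 genes (Ltf, Camp, Ngp and Mmp8), while 4.76% of all protein-coding genes held it in the same window. It began 75 bp before the start in Ltf (TTGGGCAA), 105 bp in Camp (TTGAGCAA), 77 bp in Ngp (TTGCCCAA) and 46 bp in Mmp8 (TTGCTCAA). A TATA pattern began 30 bp before the start in Mmp8, where it reads on the opposite strand, and 40 bp before it in Cd177. It was in 2 of the 7 windows and in 7.23% of those of all genes. The AP-1 pattern, found in 3.51% of all windows, began 69 bp before the start of Mmp9. A GATA pattern, found in 8.21% of all windows, began 32 bp before the start of Ltf. GFI1 patterns lay 117 bp and 6 bp before the start of Mmp8 (5.38% of all windows), and NF-kB 86 bp before that of Cd177 (5.41%). No match to PU.1, RUNX, STAT, ETS or CTCF was in any of the 7 windows, whose letters alone this describes. The shares over all genes were not matched for the low CpG ratio of the 7 promoters. RefSeq places the start of Camp 161 bp, that of Ngp 61 bp and that of Lcn2 58 bp further downstream. It places that of Mmp8 27 bp and that of Cd177 23 bp further upstream. The TATA pattern of Cd177 would lie closer to that start, and that of Mmp8 would span its start. The nearer GFI1 pattern of Mmp8 would lie past its start. The RefSeq gene record for Mmp9 begins 7893 bp further upstream, so that the printed Mmp9 window would lie inside the gene. The windows and the distances in them therefore depend on the annotation.

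Ltf encodes lactoferrin, the iron-binding protein that defines specific granules, and lies on chromosome 9 at 111019271 to 111042767. Its start region (chr9:111018970-111019769) reached 9.07-fold enrichment in replicate 1 and 8.76-fold in replicate 2, with a mean of 8.91 ± 0.217 (SD, n = 2). The summit lay 44 bp upstream of the start. Of all genes with an open promoter, 27.1% had a lower value.

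Camp encodes cathelicidin, the precursor of an antimicrobial peptide, and lies on the minus strand of chromosome 9 at 109847379 to 109849617. Its start region (chr9:109848783-109849833) reached 8.65-fold in replicate 1 and 7.95-fold in replicate 2, with a mean of 8.30 ± 0.492. The summit was 8 bp upstream of the start, and 22.3% of open genes were lower.

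Ngp encodes neutrophilic granule protein, a relative of the cystatins, and lies on chromosome 9 at 110419747 to 110423012. Its start region (chr9:110419543-110420527) was weaker, with 4.74-fold in replicate 1, 5.09-fold in replicate 2 and a mean of 4.91 ± 0.245. This was the only start region of the 7 that was higher in replicate 2. Its summit lay in the coding sequence, 186 bp downstream of the start, and 4.13% of open genes were lower.

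Lcn2 encodes lipocalin 2, which binds bacterial siderophores, and lies on the minus strand of chromosome 2 at 32384633 to 32388252. Its start region (chr2:32387113-32388198) reached 7.91-fold in replicate 1 and 7.34-fold in replicate 2, with a mean of 7.63 ± 0.408. The summit lay 49 bp downstream of the start of the principal transcript, and 17.6% of open genes were lower.

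Mmp8 encodes neutrophil collagenase and lies on chromosome 9 at 7558456 to 7568485, far from Ltf, Camp and Ngp. It had the strongest start region of the 7 (chr9:7558021-7558934), with 12.2-fold in replicate 1 and 11.5-fold in replicate 2. Its mean of 11.8 ± 0.482 exceeded 53.0% of the genes with an open promoter, and Mmp8 was the only one of the 7 above their median. The summit lay 31 bp upstream of the start, beside the TATA pattern shown above.

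Cd177 encodes a membrane-anchored surface protein that neutrophils keep in specific granules, and lies on the minus strand of chromosome 7 at 24743983 to 24760311. Its start region (chr7:24760055-24760511) was narrow, at 457 bp, and reached 5.69-fold in replicate 1 and 5.30-fold in replicate 2. The mean was 5.496 ± 0.277, and 6.31% of open genes were lower.

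Mmp9 encodes gelatinase B, the enzyme after which gelatinase granules are named, and lies on chromosome 2 at 164940780 to 164955850. The region at the start of its principal transcript (chr2:164947980-164948499) was the weakest of the 7 start regions within 500 bp of a start. With 1 kb from a start allowed, Mmp9 had a stronger region, at 5.84, which put it above Ngp at 4.91. That region lay in an intron of Mmp9, 5.20 kb downstream of the principal start and near another annotated start. The region at the principal start reached 4.21-fold in replicate 1 and 3.48-fold in replicate 2, with a mean of 3.85 ± 0.520, and only 1.02% of open genes were lower. A longer Mmp9 transcript starts further upstream, and no shared region lay within 500 bp of that 5′ end. With the 5′ end of each gene as its only start, 6 of the 7 genes were open, without Mmp9, against 54.4% of all genes.

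From high to low, the start regions stood in the order Mmp8, Ltf, Camp, Lcn2, Cd177, Ngp and Mmp9, and the replicate values of neighbours in this order did not overlap. The ranges of mean ± SD did overlap between Ltf and Camp and between Camp and Lcn2, so their order rests on the pair of samples alone. The authors also deposited lists thresholded on the irreproducible discovery rate (IDR), which keep only peaks that rank alike in repeat calls. In those of both samples, 5 of the 7 genes kept a start region, without Mmp9 and Cd177, while 53.0% of all protein-coding genes did.

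**Figure D1:**
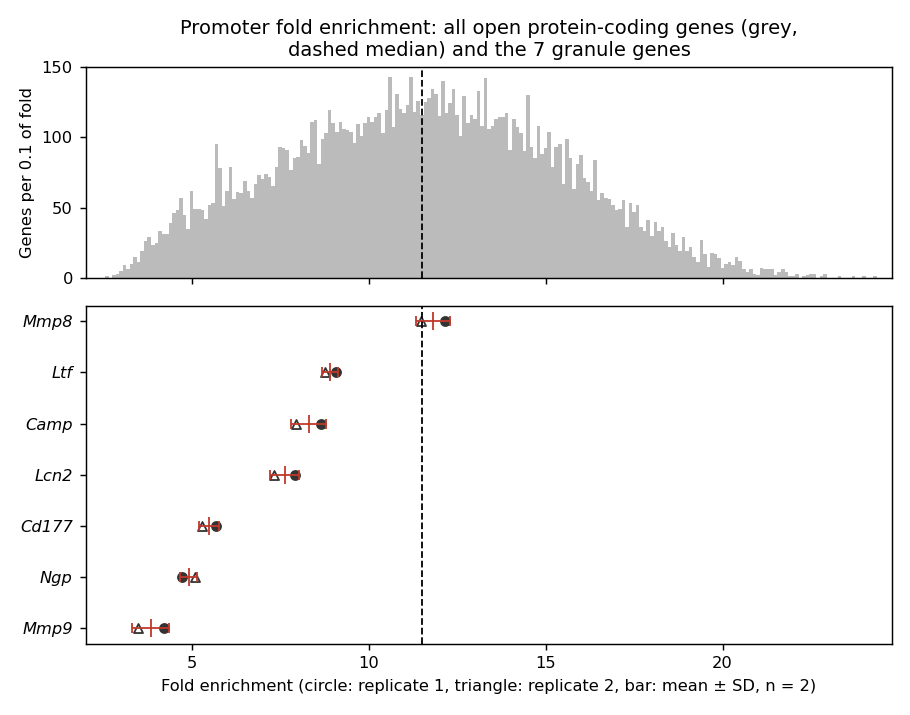
Fold enrichment of the start region over local background (x axis) for all 13004 protein-coding genes with an open promoter (upper panel, genes per bin) and for the 7 granule genes (lower panel). Circles are replicate 1, triangles replicate 2, bars the mean ± SD (n = 2) and the dashed line the median of all open genes, 11.5; the mean of Mmp8 alone lies above it.

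Around the genes, the windows held 75 shared regions, with no region in more than 1 window. Of these, 7 were at the start of the gene itself, 13 at the start of another gene (within 500 bp), 8 inside the gene and 47 elsewhere. By summit, 35 were intergenic, 26 intronic, 9 in untranslated or non-coding exons and 5 in coding exons. A window held a median of 11 shared regions, where that of all protein-coding genes was 7. Per 100 kb of window the 7 genes had between 6.88 and 12.96 (median 9.68), against a median of 4.93 over all genes. Counting only regions at no gene start, the median was 7 against 4.

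Ltf had the most regions, 16, and 90.9% of all genes had fewer. Lcn2, Mmp8 and Mmp9 had 11 each, Ngp 10, and Camp and Cd177 had 8 each. At no start of any gene, the counts were 14 for Ltf, 10 for Mmp8, 8 for Ngp, 7 for Mmp9, 6 for Cd177 and 5 each for Camp and Lcn2. Camp, Ngp and Ltf share a stretch of 1.20 Mb on chromosome 9, with 570 kb between Camp and Ngp and 596 kb between Ngp and Ltf, so their windows did not touch.

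**Figure D2:**
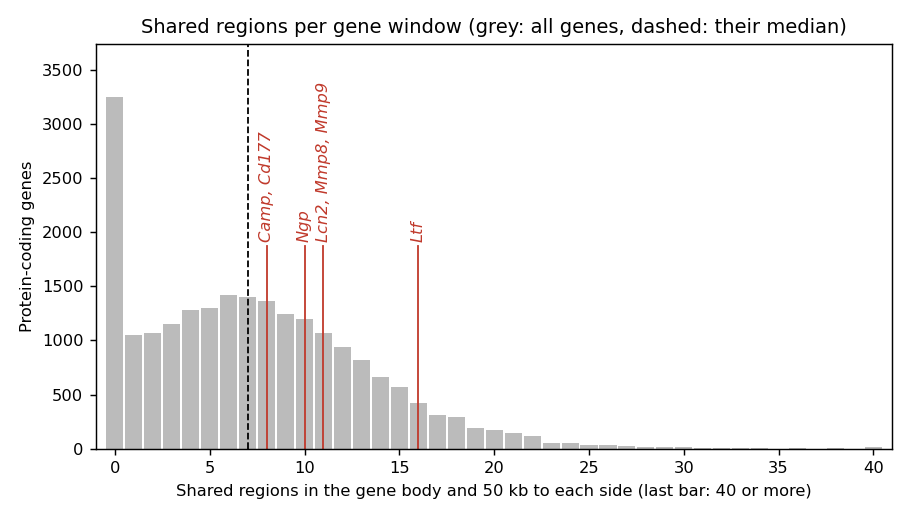
Number of protein-coding genes (y axis) by the number of shared regions in the gene body and 50 kb to each side (x axis, with 40 or more in the last bar). Red lines mark the 7 granule genes, which had between 8 and 16 regions, all to the right of the dashed median of 7.

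The start of the gene was in no window the strongest region. It was stronger than 7 of the 10 other regions of the Mmp8 window but ranked last in those of Ngp and Mmp9. Of all genes with an open promoter, 29.2% had their strongest region at their own start. The strength lay instead at distant regions and at the starts of neighbours, which are given next gene by gene. Distances are from the start of the principal transcript.

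**Figure D3:**
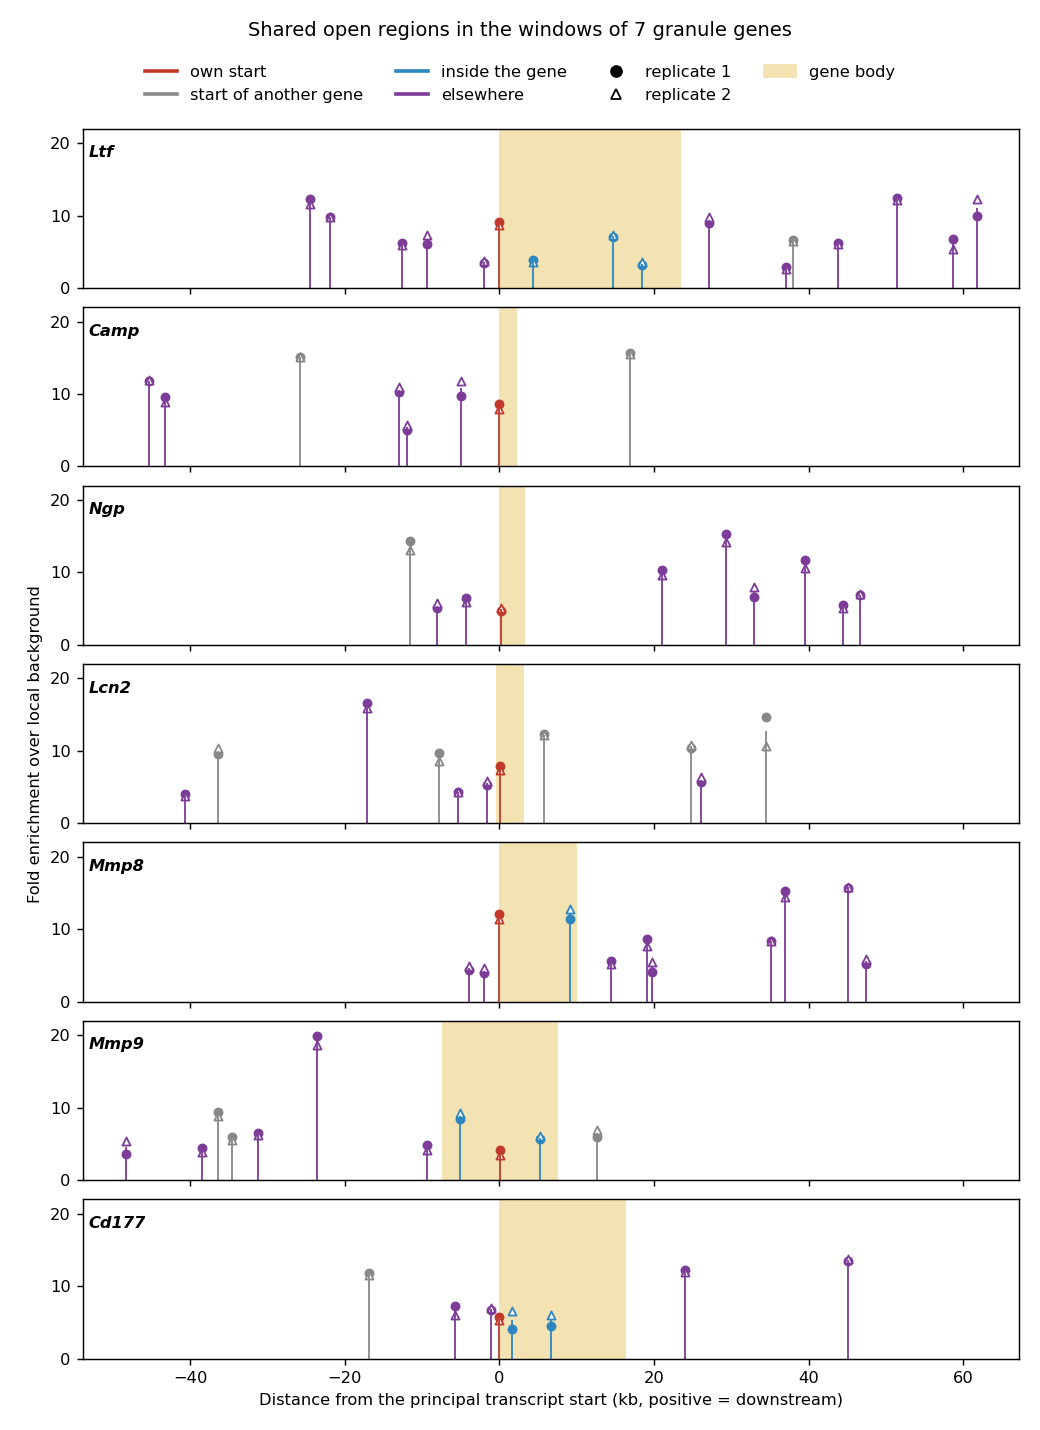
Fold enrichment over local background (y axis) of each shared region against the distance of its summit from the principal transcript start (x axis, kb, downstream positive). Circles are replicate 1, triangles replicate 2, line heights their mean, colours the class of region and shading the gene body; the highest point is the Mmp9 region 23.6 kb upstream, at 19.9-fold and 18.6-fold.

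In the window of Mmp9, the strongest region lay 23.6 kb upstream, in intergenic DNA, with 19.9-fold enrichment in replicate 1 and 18.6-fold in replicate 2. Its mean of 19.3 ± 0.943 was above 99.5% of all shared regions and was the highest of all 75. A region inside the longer transcript, 5.11 kb upstream of the principal start, reached 8.86 ± 0.615. Another, 31.2 kb upstream in an intron of Zfp335os, reached 6.37 ± 0.132. Of other genes, the starts of Zfp335, a zinc finger gene, and its antisense RNA Zfp335os shared a region of 9.08 ± 0.404. A further start of Zfp335os had 5.74 ± 0.350, and Slc12a5, a potassium and chloride cotransporter, had 6.47 ± 0.717.

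In the window of Lcn2, the strongest region lay 17.1 kb upstream, in an untranslated or non-coding exon of Ptges2, a prostaglandin E synthase gene. It had 16.6-fold enrichment in replicate 1 and 16.0-fold in replicate 2 (mean 16.3 ± 0.453, above 96.8% of all shared regions). Next at no other gene start came the Lcn2 start itself and a region 26.1 kb downstream in an intron of Ciz1, at 6.03 ± 0.525. This window was the richest in starts of other genes. Dnm1, which encodes the neuronal dynamin, had 14.7-fold in replicate 1 but 10.7-fold in replicate 2 (12.7 ± 2.82), the widest SD of any region in the 7 windows. The starts of 1110008P14Rik (12.2 ± 0.107), Ciz1 (10.6 ± 0.350), Slc25a25 (9.94 ± 0.614) and Ptges2 (9.14 ± 0.786) were all above that of Lcn2.

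In the window of Mmp8, which held no start of another gene with a shared region, the strongest regions lay 45.1 kb and 37.0 kb downstream, both intergenic. The first had 15.7-fold and 15.9-fold enrichment in replicates 1 and 2 (mean 15.8 ± 0.170). The second had 15.3-fold and 14.4-fold (mean 14.9 ± 0.632). They were above 95.9% and 93.8% of all shared regions. A region inside Mmp8 itself, 9.09 kb downstream of the start, had 11.5-fold in replicate 1 and 12.8-fold in replicate 2 (12.1 ± 0.963), close to the value at the start. The neighbouring collagenase relative Mmp27 held 3 regions, in 2 introns and 1 coding exon.

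Near Ngp, 6 regions lay within introns of Klhl18, a substrate adaptor of a ubiquitin ligase. The strongest was 29.3 kb downstream of the Ngp start, with 15.2-fold in replicate 1 and 14.1-fold in replicate 2 (14.7 ± 0.781, above 93.4% of all shared regions). The next in strength were 39.6 kb downstream (11.2 ± 0.781) and 21.1 kb downstream (9.98 ± 0.541). The start of Ptpn23, a phosphatase gene, reached 13.7 ± 0.867, well above the start of Ngp.

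Near Cd177, the strongest region lay 45.1 kb downstream, in coding sequence of Gm4763, with 13.5-fold in replicate 1 and 13.7-fold in replicate 2 (13.6 ± 0.149). An intergenic region 24.04 kb downstream had 12.1 ± 0.227, and a region 1.05 kb upstream had 6.79 ± 0.226. The start of Ceacam10, an adhesion molecule gene, reached 11.6 ± 0.242. Both regions inside Cd177 were higher in replicate 2: 6.61-fold against 4.11-fold at 1.59 kb downstream, and 6.04-fold against 4.49-fold at 6.63 kb.

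Near Ltf, the 3 strongest regions were above 84.5%, 82.8% and 78.2% of all shared regions, in the order given here. The region 51.4 kb downstream, in intergenic DNA, had 12.4-fold in replicate 1 and 12.2-fold in replicate 2 (12.3 ± 0.148). That 24.5 kb upstream, in an intron of Gm10030, had 11.9 ± 0.511, and that 61.7 kb downstream had 11.1 ± 1.68. Within Ltf there were 3 intronic regions, of which the one 14.6 kb downstream of the start was highest, at 7.24 ± 0.201. Ccrl2, which encodes a chemerin-binding receptor, had 6.56 ± 0.0481 at its start.

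Near Camp, starts of other genes led. The shared start of Nme6 and 3000002C10Rik had 15.7-fold in replicate 1 and 15.6-fold in replicate 2 (15.6 ± 0.102). Cdc25a, a phosphatase of the cell cycle, had 15.1-fold in both (15.1 ± 0.0289). At no gene start, the strongest were 45.3 kb upstream (11.8 ± 0.107), 4.93 kb upstream (10.8 ± 1.40) and 13.0 kb upstream (10.6 ± 0.531). All 5 such regions lay upstream of Camp and none downstream.

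The replicates differed little at these regions. Over the 75 regions, the median log2 ratio of fold enrichment between replicate 2 and replicate 1 was -0.01, with an SD of 0.20. Over all 69539 shared regions these were 0.05 and 0.24. In 73 of the 75 the replicates were within 1.5-fold of each other, as in 96.4% of all shared regions. The exceptions, named after their values were seen, were the Cd177 region 1.59 kb downstream and an Mmp9 region 48.3 kb upstream, with 3.55-fold in replicate 1 and 5.46-fold in replicate 2. Regions of 1 replicate alone were weak, with 9 in replicate 1 (median 3.75-fold) and 7 in replicate 2 (median 4.07-fold). Of the 75 regions, 47 (62.7%) were in the IDR lists of both samples, against 53.3% of all shared regions. Their median fold enrichment, 7.24, was near that of all shared regions, 7.52, and 8 of the 75 were above the 90th percentile. The central 50 bases of each of the 75 summits occur once in the genome.

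The strongest regions at no gene start are shown for 5 of the genes, as 201 bases centred on the summit, because they hold the strongest distant signal of the windows. Those of Lcn2 and Cd177 lie in exons and are not printed. Strand is that of the gene, and capitals mark the best match to the CTCF consensus of 12 letters with at most 2 mismatches. CTCF is the zinc finger protein known for its binding at the boundaries of chromatin domains.
Mmp9, plus strand, chr2:164924565-164924765: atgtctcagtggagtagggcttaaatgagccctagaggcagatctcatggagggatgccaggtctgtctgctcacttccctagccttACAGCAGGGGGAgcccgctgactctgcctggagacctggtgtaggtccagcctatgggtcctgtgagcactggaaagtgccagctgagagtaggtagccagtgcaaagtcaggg
Mmp8, plus strand, chr9:7603408-7603608: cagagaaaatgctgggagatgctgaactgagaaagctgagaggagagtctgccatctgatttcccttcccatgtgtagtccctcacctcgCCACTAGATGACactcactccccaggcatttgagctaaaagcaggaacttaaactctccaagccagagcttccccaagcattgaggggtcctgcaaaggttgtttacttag
Ngp, plus strand, chr9:110448961-110449161: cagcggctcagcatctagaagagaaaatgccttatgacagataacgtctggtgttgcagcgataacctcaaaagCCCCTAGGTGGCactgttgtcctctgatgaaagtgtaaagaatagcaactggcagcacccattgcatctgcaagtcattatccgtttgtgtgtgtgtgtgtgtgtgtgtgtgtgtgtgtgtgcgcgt
Ltf, plus strand, chr9:111070561-111070761: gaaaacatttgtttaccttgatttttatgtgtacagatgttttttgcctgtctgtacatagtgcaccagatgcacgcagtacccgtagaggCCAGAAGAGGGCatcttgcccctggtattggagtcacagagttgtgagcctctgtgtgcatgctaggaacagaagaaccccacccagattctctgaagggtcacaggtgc
Camp, minus strand, chr9:109894842-109895042: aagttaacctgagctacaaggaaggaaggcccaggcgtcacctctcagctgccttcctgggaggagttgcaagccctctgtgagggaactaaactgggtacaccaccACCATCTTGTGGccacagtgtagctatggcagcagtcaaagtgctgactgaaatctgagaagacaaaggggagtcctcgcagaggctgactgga

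With no mismatch, the CTCF consensus was in 0 of the 7 strongest regions at no gene start (1 per gene) and in 1 of all 75 regions (1.33%), against 5.78% of all shared regions. The search with mismatches was chosen after these sequences were seen. With at most 1 mismatch, it was in 4 of the 7 strongest regions (Ltf, Ngp, Lcn2 and Mmp8), in 12 of the 55 regions at no gene start (21.8%) and in 19.2% of all shared regions at no gene start. With at most 2, it was in 6 of the 7, without Cd177, in 18 of the 55 (32.7%) and in 36.3% of all. Among all shared regions at no gene start that were above the 90th percentile of fold enrichment, the shares were 26.4% and 43.1%. These shares describe 7 regions picked by height, and nothing is read from them about CTCF.

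Patterns of blood cell factors within 100 bp of the summit differed in the same descriptive way. The C/EBP pattern was in 19 of the 75 regions (25.3%) against 13.4% of all shared regions. At no gene start it was in 15 of 55 (27.3%) against 15.5%. Within 50 bp of the summit the shares were 16.0% and 8.08%. Mmp8 had 5 of these regions, Ltf and Cd177 had 4 each, Ngp had 3, and Camp, Lcn2 and Mmp9 had 1 each. In Mmp8 they included the start and the region inside the gene. In Ltf, Camp and Mmp8 the match at the start was the one printed above, while that of Ngp lay outside the 201 bases around its summit.

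The other patterns, too, are given as their share of the 75 regions against that of all shared regions. PU.1 was in 18.7% against 22.2%, RUNX in 14.7% against 21.97%, GATA in 13.3% against 12.8% and AP-1 in 5.33% against 9.16%. GFI1 was in 5.33% against 6.98%, NF-kB in 5.33% against 4.68% and STAT in 2.67% against 5.32%. ETS was in 3 of the 75 regions against 5.00% of all, and the TATA box in 6 of the 75 against 5.89%. At no gene start, PU.1 was in 14 of 55 regions (25.5%) against 25.7% of all such regions. RUNX was there in 9 of 55 (16.4%) against 25.4%. No PU.1 pattern was in the regions of Camp or Cd177, and 5 of the 14 were in those of Ltf. Regions of 1 window share a locus and are not independent, and a match shows letters and not binding.

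**Figure D4:**
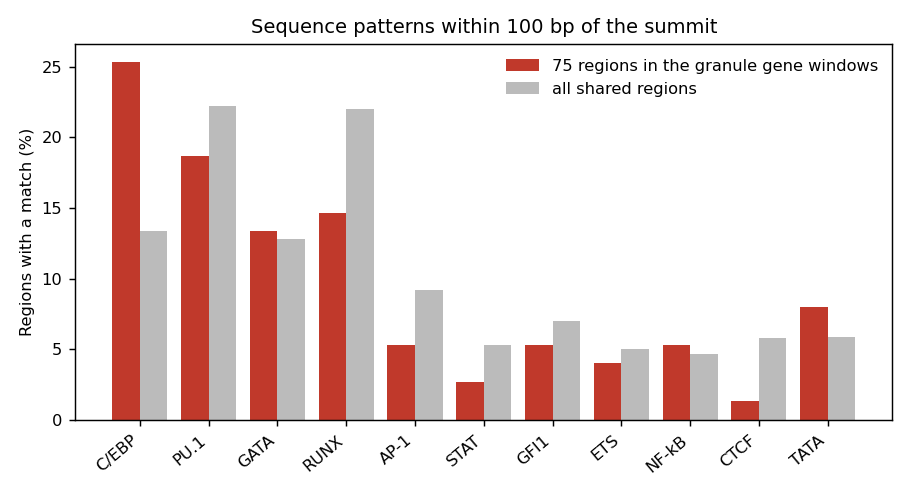
Share of regions (y axis, %) with a match to each of 11 patterns within 100 bp of the summit, for the 75 regions of the granule gene windows (red) and all 69539 shared regions (grey). C/EBP shows the widest gap, 25.3% against 13.4%; RUNX lies at 14.7% against 21.97%.

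The other granule genes were read from lists, beside the 59.8% of all protein-coding genes that had an open promoter. Of 20 further genes of specific and gelatinase granules, 18 had an open promoter, with a median fold enrichment of 8.21. The highest were Mmp25, a membrane-bound metalloproteinase, at 13.1 ± 0.101, Pglyrp1, a peptidoglycan recognition protein, at 12.9 ± 0.409, and Cfp, the complement factor properdin, at 11.97 ± 1.02. Fpr1, a formyl peptide receptor, and Ptx3, a pentraxin, had no open promoter in either replicate. Of 9 primary granule genes, 8 had an open promoter, with a lower median of 5.48. The highest were Bpi, which binds bacterial endotoxin, at 11.97 ± 0.211, Ctsc, the protease that activates granule serine proteases, at 11.1 ± 0.246, and Mpo, the myeloperoxidase gene, at 7.30 ± 0.683. Elane, the neutrophil elastase gene, had no open promoter, although its window held 18 shared regions.

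All 9 regulators of granulocyte development in the list had an open promoter, also in the IDR lists of both samples. Of all protein-coding genes, 59.8% had one and 53.0% had one in those IDR lists. The highest were Stat3, which relays cytokine signals, at 13.2 ± 0.105, Spi1, which encodes PU.1, at 9.79 ± 0.814, and Csf3r, the receptor of granulocyte colony-stimulating factor, at 8.73 ± 0.629. The C/EBP genes had 8.70 ± 1.00 (Cebpa), 7.99 ± 0.419 (Cebpd), 6.10 ± 0.625 (Cebpe) and 4.30 ± 0.527 (Cebpb). Gfi1 had 4.89 ± 0.145 and Runx1 7.17 ± 0.318. Windows of the regulators held a median of 15 shared regions, those of the primary granule genes 12 and those of the other specific and gelatinase granule genes 11.

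Markers of cell types were read in the same lists of regions, beside the 7 of 7 open granule genes and the 59.8% of all genes. Of 19 megakaryocyte markers, 9 had an open promoter, led by Itga2b, the platelet integrin subunit, at 13.5 ± 0.584, and Nfe2, a megakaryocyte and erythroid factor, at 9.892 ± 0.1998. Without a shared promoter region were Clec1b, Gp1ba, Gp1bb, Gp5, Gp6, Gp9, Ppbp, Selp, Treml1 and Tubb1, of which 7 had no region in either replicate. Of 10 other neutrophil markers, 10 had an open promoter, led by Mmp25 and by Trem1, a receptor of myeloid cells, at 10.8 ± 0.571. Mmp25 is also among the 20 further granule genes above, so these lists are not separate. Summed over the markers with an open promoter, fold enrichment in replicates 1 and 2 was 83.6 and 79.5 for the neutrophil list (10 genes) and 74.7 and 72.1 for the megakaryocyte list (9 genes). The median per open gene was 7.55 in the neutrophil list and 7.62 in the megakaryocyte list. Over the 7 granule genes the summed fold enrichment was 52.4 in replicate 1 and 49.4 in replicate 2, with a median of 7.63.

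Open promoters were found for 8 of 10 monocyte and macrophage markers, 6 of 10 erythroid, 5 of 8 mast cell, basophil and eosinophil and 4 of 7 B cell markers. They were found for 2 of 7 T and NK cell, 2 of 5 endothelial and 0 of 7 hepatocyte markers. The share of all protein-coding genes was 59.8%. The part of other cells in the sample in the open regions of the granule genes was not tested, and fewer open cells and less opening per cell cannot be told apart in these bulk samples.

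**Figure D5:**
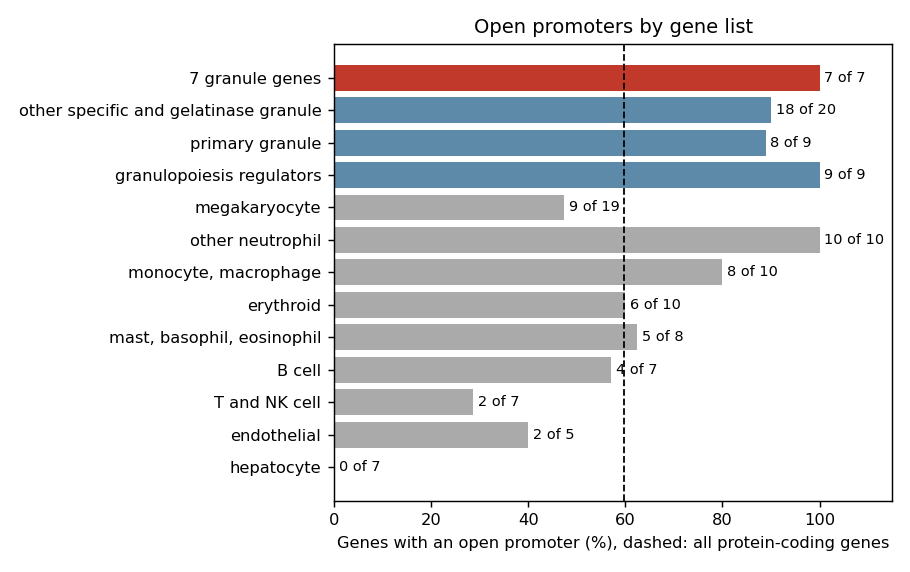
Share of genes with an open promoter (x axis, %) in each list, with the counts beside the bars. The dashed line is the share of all protein-coding genes, 59.8%, which is not matched for the CpG ratios of the lists. The 7 granule genes (red) and the regulators and other neutrophil markers are at 100%, the megakaryocyte markers at 47.4% and the hepatocyte markers at 0.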

How the data were processed

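The data were 2 ATAC-seq samples of 1 group. The authors deposited narrowPeak lists on mm10, per the file listings in the series. Those used were the pseudoreplicated and IDR-thresholded lists of each sample, and the replicated and conservative IDR lists of the pooled samples. The aligner and peak caller are not given in the sources used here. The deposited column 7 was read as fold enrichment over local background, a ratio, and column 8 as −log10 p, from the format, since no header defines them. No scaling between samples is stated. No read counts were used, so depth is unknown and SDs over n = 2 are the only error. All columns were mapped (0 unmapped).

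Peaks on chromosomes 1 to 19 and X were merged where they overlapped by at least 1 bp, keeping the highest fold and its summit, which gave 79800 and 81707 regions. Shared regions were unions of regions that overlapped between replicates by at least 1 bp (69539). Genes and starts were from GENCODE M21, with the principal transcript for distances. Sequence was read from the RefSeq copy of GRCm38.p6 with pysam 0.24.0, and tables were handled with pandas 2.3.3 and numpy 2.4.6. The scripts were tested on simulated data. No test was made, since there is no contrast. Shares of open promoters and of patterns are set beside those of all genes or regions, except for the count with the principal start alone. The 7 genes, the lists and the patterns were chosen with earlier results of these data known. Named genes were the 7, neighbours with a shared region at their start or strongest in a window, the 3 highest genes and those with no open promoter of each pathway list, and the 2 highest megakaryocyte and neutrophil markers. The 3 strongest regions of a window at no start of another gene were named. Cebpa, Cebpd, Cebpe, Cebpb, Gfi1 and Runx1 were named in addition, after their values were seen. The 10 megakaryocyte markers without an open promoter were also named beyond this rule, and those of the other marker lists were not. Of the megakaryocyte markers, 1 is not reported here.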

Additional observations from a re-analysis of the deposited data

How the results depend on the processing

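No paired analysis was possible because the study has 1 group. In place of the 7 genes with an open promoter, 5 were found with the IDR lists of each sample (without Mmp9 and Cd177), and 6 (without Mmp9) with the conservative IDR list, with peaks of at least 4-fold enrichment, or with the 5′ end as the only start. It was 7 with the replicated peaks, with 50% reciprocal overlap, with starts within 1 kb, and with the principal start alone, which was added after the data were seen. Over all protein-coding genes, the open share was 53.0% with the IDR lists, 57.6% with the conservative list, 58.4% at 4-fold and 54.4% with the 5′ end. It was 63.2% with the replicated peaks, 58.4% with reciprocal overlap and 61.4% within 1 kb, against 59.8% as reported. In place of 75 shared regions in the windows, 47 were found with the IDR lists, 46 with 20 kb to each side and 119 with 100 kb. In place of the median fold enrichment of 7.63 at the starts, the IDR lists gave 8.30, the replicated peaks 8.08 and the conservative list 8.41. With either replicate left out, 7 genes were open, 83 to 85 regions were found and the median was 7.34 to 7.91. The open share of all genes was then 61.3% without replicate 1 and 60.9% without replicate 2. Fewer or pooled peaks and narrower or wider windows account by construction for fewer or more regions. With the IDR lists, the 5 genes left kept their fold enrichment, so that higher median came from the loss of Mmp9 and Cd177. Over all open genes the medians were 12.1 with the IDR lists, 11.9 with the replicated peaks and 12.4 with the conservative list. As reported it was 11.5. The cause of the higher values in the pooled lists was not tested. Regions within 1 kb of any annotated start gave 5.84 for Mmp9 (3.85 as reported) and 6.79 for Cd177 (5.496), so that Ngp was lowest. Of the values of single genes under the alternatives, 25 moved and 103 did not. A move was one beyond the spread between replicates or, for counts, of over 1.5 times. Of the shares of patterns, 4 moved out of their 95% binomial interval and 18 did not. All 4 (GATA, AP-1, GFI1 and NF-kB) were shares within 50 bp of the summit, where a share can only fall. Over all shared regions these 4 fell too, that of GATA from 12.8% to 5.93%, beside 13.3% to 5.33% in the 75. The interval treats regions as independent, which regions of 1 window are not. Precision is limited by the number of samples, 2, and by the unknown depth.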
